A study of Rattus norvegicus with 20 samples.

Results

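The genes described here are the MHC class II chains, their invariant chain and cathepsin S, measured in rat dorsal root ganglia after nerve injury. The members were every probe set that the array's annotation assigns to Cd74, RT1-Da, RT1-Ba, RT1-Bb, RT1-Db1 or Ctss alone, which gave 6 of 4736 genes and 17 of the 8740 probe sets tested. Cd74 had 4 of them, RT1-Da 2, RT1-Ba 3, RT1-Bb 5, RT1-Db1 2 and Ctss 1. Dorsal root ganglia hold the cell bodies of sensory neurons, and the ganglia were taken from the injured side. Chronic constriction injury (CCI), in which loose ties are placed around the sciatic nerve, gave 3 samples at 14 days and 3 at 21 days. Seltzer ganglia, named after a model of partial injury to the sciatic nerve and labelled as transection surgery, gave 2 at 14 days, 3 at 21 days and 2 at 50 days. Sham-operated ganglia likewise gave 2, 3 and 2 at those days. Each sample was total RNA read on 1 Affymetrix array. The labels give no strain, sex, age, genotype or number of animals per sample. Nor do they state that replicates were different animals, and p-values here therefore measure only the spread among samples, which may be technical.

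MHC class II molecules show peptides from taken-up proteins to CD4+ T cells. Each is a pair of an alpha and a beta chain, and the invariant chain, encoded by Cd74, holds the peptide groove closed and guides the pair to endosomes. Cathepsin S, encoded by Ctss, is a protease that trims the invariant chain there so that peptide can be loaded. RT1-Da and RT1-Db1 encode the alpha and beta chain of the rat RT1-D molecule, and RT1-Ba and RT1-Bb those of RT1-B. Macrophages, dendritic cells and B cells are the classical class II-bearing cells. Macrophages reside in sensory ganglia and accumulate there after injury of the nerve.

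The promoters of the 4 chain genes carry a shared stretch. The upstream sequence is shown because class II genes are known to be switched on together through conserved promoter boxes. The sequences are 70 bases of RefSeq's promoter windows (build GRCr8, written 5′ to 3′ on the strand of the gene), and capitals mark CTGATTGG and GCAAC. They lie at chr18:56527114-56527183 on the plus strand for Cd74, chr20:4515311-4515380 plus for RT1-Da, chr20:4576959-4577028 plus for RT1-Ba, chr20:4604165-4604234 minus for RT1-Bb, chr20:4560228-4560297 minus for RT1-Db1 and chr2:185775312-185775381 plus for Ctss.
Cd74: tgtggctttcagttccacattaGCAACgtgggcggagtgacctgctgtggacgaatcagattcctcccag
RT1-Da: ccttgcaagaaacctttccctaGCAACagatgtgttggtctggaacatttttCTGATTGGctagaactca
RT1-Ba: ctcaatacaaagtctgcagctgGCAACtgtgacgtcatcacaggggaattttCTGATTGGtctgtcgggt
RT1-Bb: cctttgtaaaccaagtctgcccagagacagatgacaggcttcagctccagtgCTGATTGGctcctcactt
RT1-Db1: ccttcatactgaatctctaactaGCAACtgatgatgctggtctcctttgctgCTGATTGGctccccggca
Ctss: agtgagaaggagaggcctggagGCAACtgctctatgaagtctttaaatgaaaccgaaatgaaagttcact
CTGATTGG, which contains the ATTGG core of the class II Y box, lies on the gene's own strand in all 4 chain promoters and in neither Cd74 nor Ctss. Its first base is 52 bases before the transcript start in RT1-Da, 46 in RT1-Ba, 64 in RT1-Bb and 83 in RT1-Db1. Of 33469 promoter windows, each from 250 bases before to 50 after the start, 3.5% hold CTGATTGG on either strand. GCAAC, a stretch found in 35.1% of windows, precedes CTGATTGG by 25 bases in RT1-Da, 25 in RT1-Ba and 24 in RT1-Db1, and is missing from the RT1-Bb window. GCAAC followed on the same strand after 20 to 35 bases by CTGATTGG occurs in 0.111% of windows, or 37 of them. The shorter ATTGG is in all 6 windows but also in 37.5% of all, and TGNGTCA, an X2-like core, is in the Ctss window only, against 14.5% of all. The RT1-Ba segment holds TGACGTCA shortly after GCAAC, which the pattern TGNGTCA cannot match. A window without TGNGTCA is therefore not shown to lack an X2 box. Motifs were searched on both strands, ATTGG lies within CTGATTGG, and CTGATTGG and GCAAC were chosen after the windows had been read. These matches describe letters and not binding.

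The 4 chain genes lie together on chromosome 20 in the order RT1-Da (4515393 to 4520387), RT1-Db1 (4550594 to 4560182), RT1-Ba (4577057 to 4581650) and RT1-Bb (4598475 to 4604118). Cd74 lies on chromosome 18 (56527071 to 56536406) and Ctss on chromosome 2 (185775316 to 185803440). The promoter windows count from 1 transcript start per gene, and the Cd74 segment and nearly all of the Ctss segment fall within the outer limits of the annotated gene.

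Values are deposited intensities on a linear scale, of which part are below 0. An array's background level was set at the size under which 95% of its negative values lay. This level reached 766.3 and 598.9 in the Seltzer 50-day samples and 498.7 in replicate 1 of CCI at 21 days, and was 169.4 to 325.6 on the other 17 arrays. Of the 17 member probe sets, 9 were above background on at least 1 array. RT1-Da (M15562_g_at) was above it on all 20 arrays, Cd74 (X13044_at) on 17 and on none of the Seltzer 50-day arrays, and RT1-Db1 (X53054_g_at) on 18. The label of the tissue was checked on its markers: the neuronal genes Nefl, Nefm, Nefh, Prph, Snap25, Uchl1 and Calca were above background on all 20 arrays, as were the Schwann cell genes Pmp22, Prx and S100b. The neuronal gene Scn10a was above it on 14 arrays, and the Schwann cell genes Mag, Gjb1 and Mbp on 19, 17 and 16. Of the satellite glia genes measured, Glul was above it on all 20 arrays, Fabp7 on 1 and Kcnj10 on none. Some neuronal genes moved with the comparisons below: Snap25 was called lower in CCI ganglia as the mean over 14 and 21 days, with a log2 change of -0.60 (adjusted p = 0.00745), and so was Scn10a, with -1.06 (adjusted p = 0.00479). In Seltzer ganglia at 50 days 1 of the 8 neuronal genes was called higher and 2 lower, among Prph, Snap25 and Uchl1. The part of these shifts in the members' changes was not tested.

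**Figure D1:**
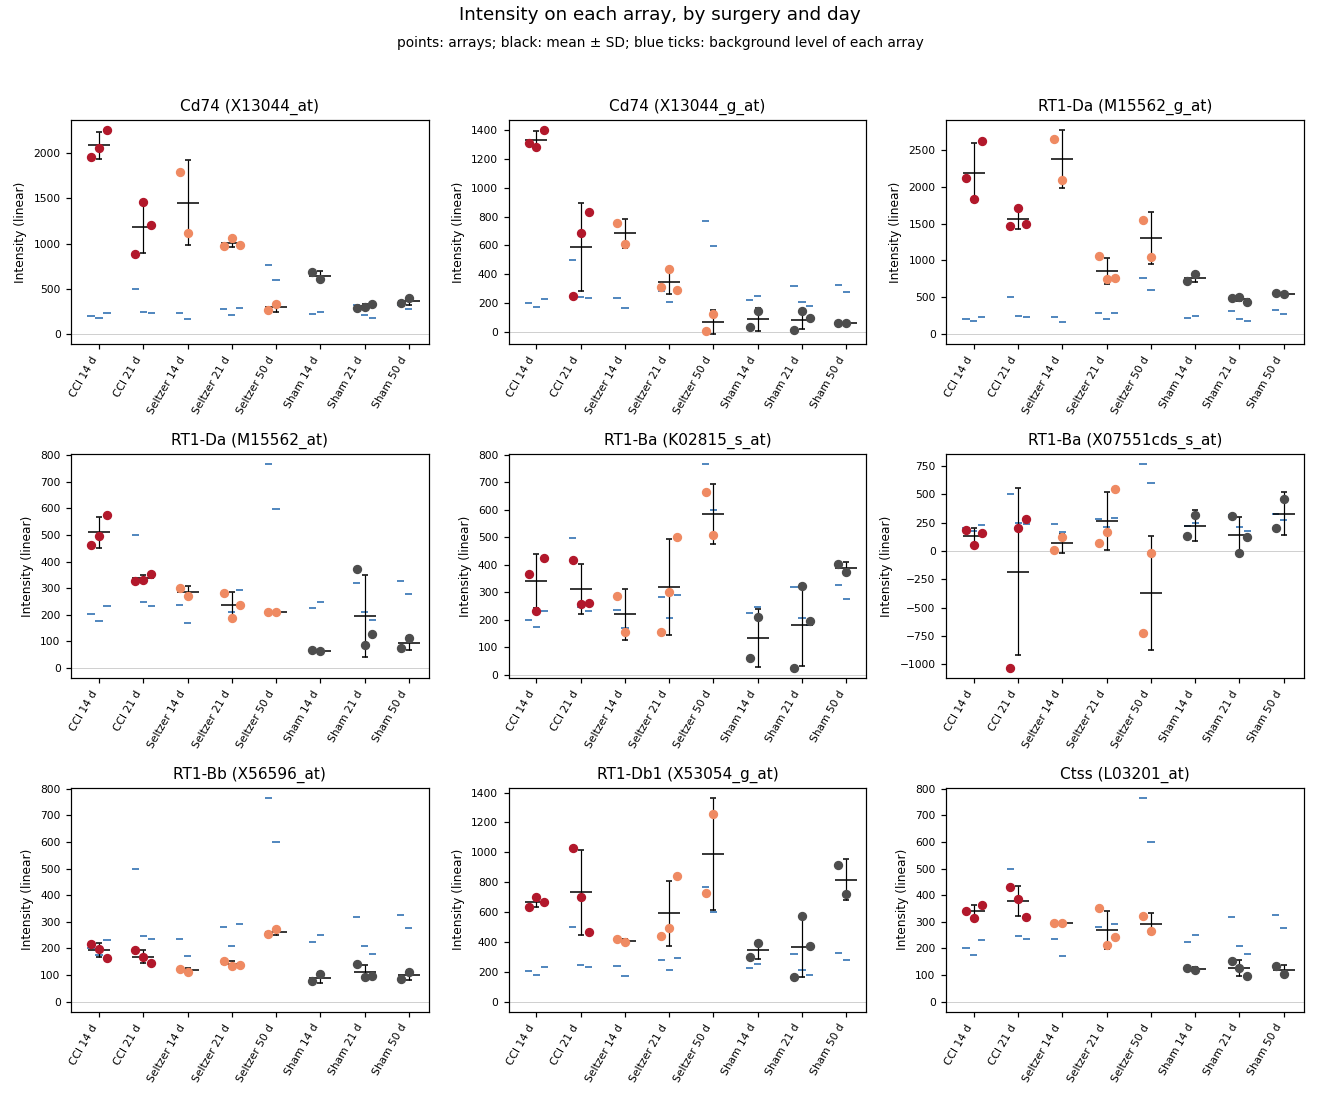
Intensity (linear, y axis) of the 9 member probe sets above background on at least 1 array, by surgery and day (x axis). Points are arrays, black marks are mean ± SD, and blue ticks are the background level of each array. Cd74 (X13044_at) sits at 1954 to 2251 on the CCI 14-day arrays and at 264 and 332, under the raised background ticks, on the Seltzer 50-day arrays.

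Changes are log2 differences from a limma fit over all 20 arrays, with 16 added to each value and p adjusted over all 8740 probe sets by Benjamini-Hochberg (threshold 0.05). As the mean over 14 and 21 days, Cd74, RT1-Da, RT1-Bb and Ctss were higher in CCI ganglia than in sham ganglia, by 0.78 to 3.35 on the log2 scale. Of the 17 member probe sets, 6 were higher and 0 lower, against 1.19% of all probe sets tested that were higher, and 11 had an unadjusted p under 0.05, against 10.7% of all. The median change was 0.99 over the members and 0 over all probe sets. In bulk tissue more cells of a type and more RNA per cell cannot be told apart. At 14 days 7 members were higher and 0 lower, against 1.35% of all probe sets, and at 21 days 3 were higher and 0 lower, against 0.538%. Only 4 members passed at 14 days once Sham 14-day replicate 1 was left out, and 1 at 21 days in a fit of the compared groups alone. The bright probe sets of the invariant chain, of RT1-Da and of cathepsin S were called at both days.

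Cd74 (X13044_at) had intensities of 1954, 2059 and 2251 in CCI ganglia at 14 days, against 686 and 606 in sham ganglia. At 21 days it had 886, 1460.3 and 1210.3 in CCI ganglia, against 288, 306 and 336 in sham ganglia. Each CCI array lay above each sham array of its day, and the lowest CCI array at 21 days, replicate 1, was still above the highest sham array of any day. Sham 21-day replicate 1 was under its background level. The ratio of geometric means was 3.23-fold at 14 days, a log2 change of 1.67 (SE 0.20, adjusted p = 0.000391), and 3.75-fold at 21 days, 1.86 (SE 0.18, adjusted p = 0.000146). The 21-day call was lost where only the compared groups were fitted.

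The second Cd74 probe set of the same GenBank entry (X13044_g_at), which is not an independent measurement, had 1312, 1282 and 1396 in CCI ganglia at 14 days, against 31.8 and 145 in sham ganglia. All 3 CCI arrays were above background and neither sham array was, so the difference was at least 5.64-fold, with a log2 change of 3.94 (SE 0.81, adjusted p = 0.0176). At 21 days it had 250.4, 687 and 832 in CCI ganglia, against 12.8, 144 and 96.0 in sham ganglia. The groups did not overlap, and the change of 2.76 (SE 0.72, adjusted p = 0.124) did not pass the threshold. The 14-day call was lost without any 1 of the 3 CCI 14-day arrays and without Sham 14-day replicate 1. The other Cd74 probe sets, from a different GenBank entry (X14254cds_at and X14254cds_g_at), were above background on no array and below 0 on 16 and 17 of 20.

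RT1-Da (M15562_g_at), the RT1-D alpha chain, had 2115, 1829.5 and 2616 in CCI ganglia at 14 days, against 722 and 810.2 in sham ganglia. It had 1469.5, 1705 and 1489 in CCI ganglia at 21 days, against 495, 503 and 442 in sham ganglia. The CCI and sham arrays did not overlap within or across days. The ratio was 2.83-fold at 14 days, log2 1.48 (SE 0.19, adjusted p = 0.000665), and 3.24-fold at 21 days, log2 1.66 (SE 0.17, adjusted p = 0.000209).

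The other RT1-Da probe set of that entry (M15562_at) was dimmer. It had 461, 495 and 574 in CCI ganglia at 14 days, against 65.5 and 61.9 in sham ganglia, a difference of at least 2.16-fold and a log2 change of 2.72 (SE 0.40, adjusted p = 0.00172). At 21 days it had 327, 329 and 353 in CCI ganglia, against 372, 84.2 and 128 in sham ganglia. Sham 21-day replicate 1 stood above all 3 CCI arrays of that day, and the change of 0.99 (SE 0.36, adjusted p = 0.307) was not called. Without that sham array it was called, as was RT1-Bb (X56596_at), and 5 members rather than 3 were higher at 21 days. The 14-day call, and that of the mean over both days (log2 1.85 (SE 0.27, adjusted p = 0.00183)), were lost with the 21-day sham arrays as the control of the 14-day samples.

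RT1-Bb (X56596_at), the RT1-B beta chain, had 216, 198 and 165 in CCI ganglia at 14 days, against 75.4 and 103 in sham ganglia. The groups did not overlap, but only CCI replicates 1 and 2 were above background, and the log2 change was 0.99 (SE 0.18, adjusted p = 0.00736). It had 194, 166 and 146 in CCI ganglia at 21 days, against 141, 92.9 and 95.6 in sham ganglia, all below background. The 21-day change was 0.57 (SE 0.16, adjusted p = 0.165), and a floor of 200 set under all values removed the mean call. The 14-day call was lost with that floor, without Sham 14-day replicate 1, with the 21-day sham arrays as control and where only the compared groups were fitted. A second RT1-Bb probe set (M36151cds_s_at) was called at 14 days with 2.58 (SE 0.62, adjusted p = 0.0445), although it was above background on no array. Under 20 of the 29 alternatives it no longer passed. The other 3 RT1-Bb probe sets were never above background, and 2 of them (M15358cds_at and M36151cds_i_at) were below 0 on all 20 arrays.

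RT1-Ba and RT1-Db1 did not pass the threshold after CCI. RT1-Ba (K02815_s_at), the RT1-B alpha chain, had 365, 234 and 424 in CCI ganglia at 14 days, against 60.8 and 209.9 in sham ganglia, and 417, 259.5 and 259.9 against 25.6, 322 and 196 at 21 days. Its CCI arrays lay above its sham arrays at 14 days and overlapped them at 21 days, with a mean change of 1.28 (SE 0.50, adjusted p = 0.341). RT1-Db1 (X53054_g_at), the RT1-D beta chain, had 636, 698 and 670.0 in CCI ganglia at 14 days, against 301 and 389 in sham ganglia. At 21 days it had 1029, 697 and 467 in CCI ganglia, against 163, 571 and 369 in sham ganglia. The 21-day groups overlapped, and the mean change was 0.99 (SE 0.30, adjusted p = 0.151). A call was gained without Sham 21-day replicate 2, the sham array with the highest value of its day.

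The remaining RT1-Ba and RT1-Db1 probe sets gave no call after CCI. X07551cds_s_at of RT1-Ba ran from -1032 to 549 over the 20 arrays and was above background on 4 of them. M22366_at of RT1-Ba and X53054_at of RT1-Db1 were above background on none. The class II chains resemble each other in sequence, and how far their probe sets cross-react was not tested.

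Ctss (L03201_at), cathepsin S, had 339.6, 314 and 364 in CCI ganglia at 14 days, against 127 and 119 in sham ganglia. It had 429.6, 385 and 318 in CCI ganglia at 21 days, against 153, 128 and 96.1 in sham ganglia. No sham array reached its background level, and no CCI array overlapped a sham array. The difference was at least 1.44-fold at 14 days, log2 1.35 (SE 0.20, adjusted p = 0.00218). At 21 days the change was 1.48 (SE 0.18, adjusted p = 0.000842), with no fold given because CCI replicate 1 was also under its own raised background. The 21-day call was lost where only the compared groups were fitted.

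**Figure D2:**
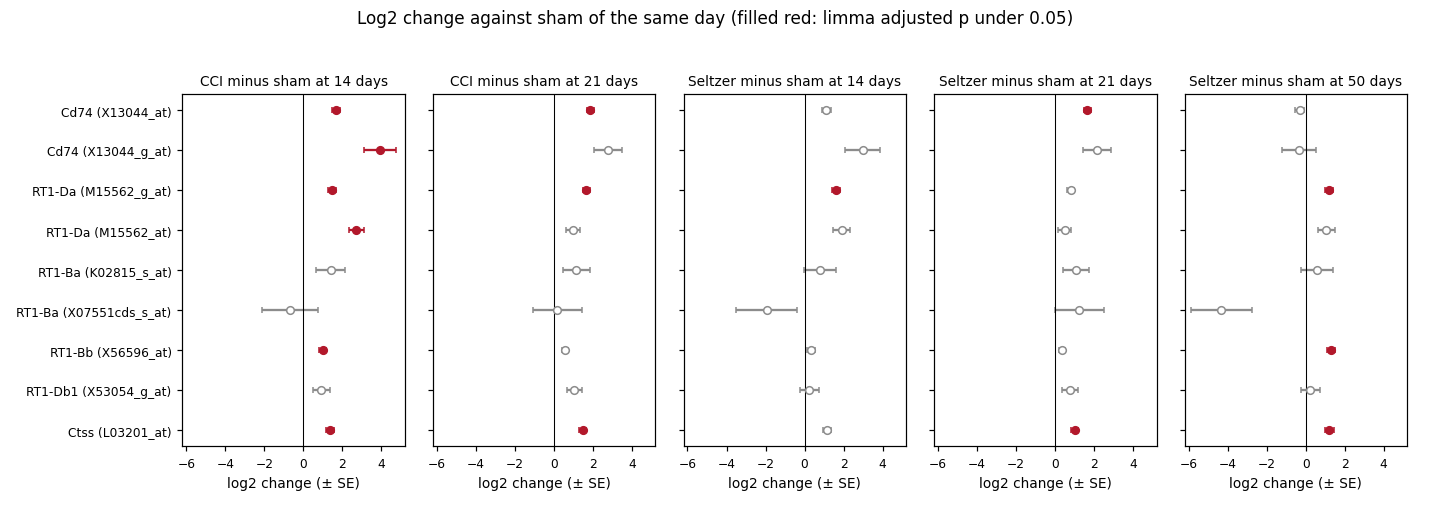
Log2 change against sham of the same day (x axis, ± SE) for the 9 member probe sets above background on at least 1 array (rows), in CCI ganglia at 14 and 21 days and Seltzer ganglia at 14, 21 and 50 days. Filled red points passed the limma adjusted p threshold of 0.05. Cd74 (X13044_at) changed by 1.67 and 1.86 after CCI and by -0.30 in Seltzer ganglia at 50 days, while RT1-Da (M15562_g_at) was called at 1.20 there.

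In Seltzer ganglia Cd74, RT1-Da, RT1-Bb and Ctss were called higher as the mean over 14, 21 and 50 days, and no member was called at every day. The sham arrays are those that CCI was compared with. Of the 17 probe sets 5 were higher and 0 lower, against 1.92% of all probe sets that were higher, with a median change of 0.17 over the members and 0.025 over all. At 14 days 1 member was higher and 0 lower, against 0.137% of all, at 21 days 2 and 0, against 0.263%, and at 50 days 3 and 0, against 8.72%. The 50-day share of all probe sets was large, so 3 of 17 there has to be read against it. Unadjusted p was under 0.05 for 7, 5 and 6 members at 14, 21 and 50 days, against 3.78%, 6.6% and 29.7% of all. The 50-day members included 2 with lower values in Seltzer ganglia, neither called: X07551cds_s_at of RT1-Ba changed by -4.32 (SE 1.55, adjusted p = 0.079) and M36151cds_s_at of RT1-Bb by -1.54 (SE 0.68, adjusted p = 0.148), with the Seltzer values of both below 0.

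Cd74 (X13044_at) had 1788 and 1121 in Seltzer ganglia at 14 days, against 686 and 606 in sham ganglia. At 21 days it had 971, 1062 and 988 in Seltzer ganglia, against 288, 306 and 336 in sham ganglia. The Seltzer arrays lay above the sham arrays at both days. The ratio was 2.20-fold at 14 days, log2 1.12 (SE 0.22, adjusted p = 0.0916), which did not pass, and 3.25-fold at 21 days, log2 1.65 (SE 0.18, adjusted p = 0.00119). At 14 days the call was gained without CCI 21-day replicate 1, without Seltzer 14-day replicate 2 and with the 21-day sham arrays as the control. The mean over days, 0.82 (SE 0.12, adjusted p = 0.00169), was lost with arrays centred on their median.

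RT1-Da (M15562_g_at) had 2647 and 2093 in Seltzer ganglia at 14 days, against 722 and 810.2 in sham ganglia, and 1055, 754 and 757 against 495, 503 and 442 at 21 days. The groups overlapped at neither day. The ratio was 3.08-fold at 14 days, log2 1.60 (SE 0.21, adjusted p = 0.00575), and 1.76-fold at 21 days, log2 0.80 (SE 0.17, adjusted p = 0.0934), which was not called. The dimmer M15562_at rose in the mean over days by 1.16 (SE 0.24, adjusted p = 0.0152) and was called at no single day. The 14-day call of M15562_g_at was lost with centred arrays and where only the compared groups were fitted, and the mean call of M15562_at without the Seltzer 50-day arrays.

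Ctss (L03201_at) had 295 and 293 in Seltzer ganglia at 14 days, against 127 and 119 in sham ganglia, and 351, 214 and 244 against 153, 128 and 96.1 at 21 days. All Seltzer arrays lay above all sham arrays. The change was 1.15 (SE 0.22, adjusted p = 0.0783) at 14 days, not called, and 1.00 (SE 0.18, adjusted p = 0.0345) at 21 days. Seltzer 21-day replicate 3 and all sham arrays were under background, so no fold is given there. With a replicate block the 14-day change passed (adjusted p = 0.0269). Under 21 of the 29 alternatives the 21-day change no longer passed, and the mean over days was 1.12 (SE 0.12, adjusted p = 0.000128).

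RT1-Bb (X56596_at) had 110.3 to 154 in Seltzer ganglia at 14 and 21 days, below background, and its mean change of 0.66 (SE 0.11, adjusted p = 0.00328) rested on the 50-day arrays: it was not called without them. RT1-Ba (K02815_s_at) changed by 0.81 (SE 0.45, adjusted p = 0.411) and RT1-Db1 (X53054_g_at) by 0.41 (SE 0.27, adjusted p = 0.492) as means over days, neither past the threshold.

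At 50 days RT1-Da was higher in Seltzer ganglia and Cd74 was not called. Cd74 (X13044_at) had 264 and 332 in Seltzer ganglia, against 339 and 399 in sham ganglia, a change of -0.30 (SE 0.22, adjusted p = 0.44). RT1-Da (M15562_g_at) had 1552 and 1052 in Seltzer ganglia, against 552 and 544 in sham ganglia. RT1-Da was above background on both Seltzer arrays, did not overlap sham and was 2.33-fold higher, log2 1.20 (SE 0.21, adjusted p = 0.00222), while both Seltzer values of Cd74 were under background and under both sham values. The RT1-Da call was lost with centred arrays and where only the compared groups were fitted.

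The Seltzer effect at 50 days minus the mean of those at 14 and 21 days was -1.68 (SE 0.27, adjusted p = 0.00175) for Cd74, a call kept under all 29 alternatives. None of the alternatives set the Seltzer 50-day values at their background level. The background of the Seltzer 50-day arrays limits what the Cd74 call shows, because Cd74 has only an upper bound on them. With both arrays set at their own background level the Cd74 effect at 50 days would be at most 0.85, against 1.38 as the mean of 14 and 21 days. The same contrast for RT1-Da (M15562_g_at) was -0.0015 (SE 0.25). Over the 17 members, 1 was higher and 1 lower, a share close to the 9.67% of all probe sets called in either direction. The one that was higher, RT1-Bb (X56596_at), had 255 and 271 in Seltzer ganglia at 50 days, against 85.4 and 113 in sham ganglia, with all 4 arrays below background. Its effect difference of 0.94 (SE 0.23, adjusted p = 0.0232) was lost in 6 of 29 settings, among them without Seltzer 50-day replicate 1 or 2 and without Sham 50-day replicate 1.

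Ctss (L03201_at) had 321 and 266 in Seltzer ganglia at 50 days, against 132 and 103 in sham ganglia. The groups did not overlap and the change was 1.22 (SE 0.22, adjusted p = 0.0029), but all 4 arrays were under background, so no fold is given. The call was lost with a floor of 200 and where only the compared groups were fitted. RT1-Db1 (X53054_g_at) had 724 and 1255 in Seltzer ganglia, against 915 and 718 in sham ganglia, which overlapped. RT1-Ba (K02815_s_at) had 663 and 508 in Seltzer ganglia, under background, against 405 and 373 in sham ganglia, above it, and neither gene was called.

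**Figure D3:**
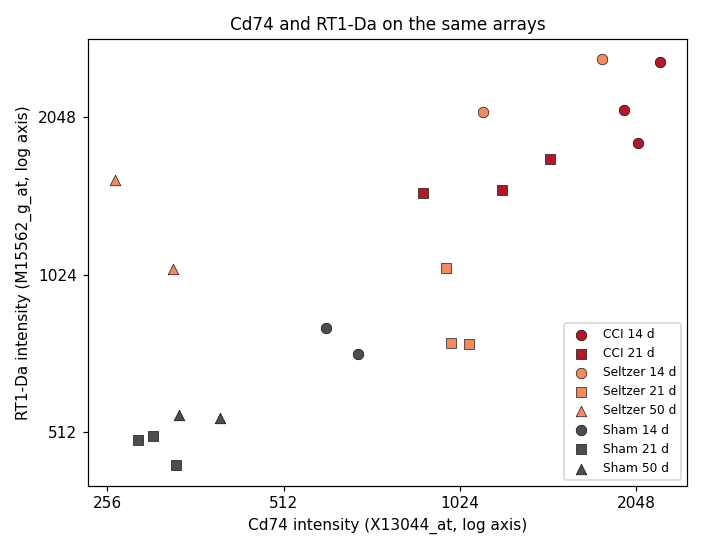
Cd74 intensity (X13044_at, x axis, log scale) against RT1-Da intensity (M15562_g_at, y axis, log scale) on the 20 arrays, coloured by surgery and shaped by day. The 2 Seltzer 50-day arrays stand apart at 264 and 332 for Cd74 and 1552 and 1052 for RT1-Da, with Cd74 below the background level there.

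CCI and Seltzer ganglia of the same day were also set against each other directly, as the mean over 14 and 21 days. None of the 17 members was called by limma, against 0.927% of all probe sets in either direction, and 6 had an unadjusted p under 0.05, against 8.98% of all. The median was 0.38 over the members, higher in CCI. Cd74 (X13044_at) was at 2088 ± 150.5 in CCI and 1455 ± 471 in Seltzer ganglia at 14 days (SD, n = 3 and 2), and at 1185 ± 288 and 1007 ± 48.4 at 21 days (n = 3 each). The 14-day arrays did not overlap and the 21-day arrays did, with a mean difference of 0.38 (SE 0.14, adjusted p = 0.354). RT1-Da (M15562_g_at) was at 2187 ± 398 in CCI and 2369.9 ± 392 in Seltzer ganglia at 14 days, and at 1555 ± 131 and 855 ± 173 at 21 days. Its 14-day arrays overlapped and its 21-day arrays did not, with a mean difference of 0.37 (SE 0.13, adjusted p = 0.325). Ctss (L03201_at) differed by 0.34 (SE 0.14, adjusted p = 0.465). A p that misses the threshold does not show that the models act alike on these genes.

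Over time, the CCI effect at 21 days minus that at 14 days was called for 0 members by limma, against 1.80% of all probe sets in either direction, and 2 had an unadjusted p under 0.05, a share close to the 11.4% of all. For Cd74 (X13044_at) it was 0.19 (SE 0.27, adjusted p = 0.871), although the CCI arrays themselves were lower at 21 than at 14 days. The sham arrays were lower too: Cd74 had 288, 306 and 336 in sham ganglia at 21 days, against 686 and 606 at 14 days, with no overlap and a change of -1.02 (SE 0.20, adjusted p = 0.0157). That was the 1 member called lower, with 0 higher, against 1.38% of all probe sets that were lower, and 4 members had an unadjusted p under 0.05, against 12% of all. The call was lost without Sham 14-day replicate 1 or 2 and without Sham 21-day replicate 1. Sham ganglia at 50 minus 21 days gave 0 member calls by limma, against 7.46% of all probe sets in either direction, and 1 member had an unadjusted p under 0.05, against 19.7% of all.

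By group mean, Cd74 (X13044_at) was highest in CCI ganglia at 14 days, followed by Seltzer at 14, CCI at 21, Seltzer at 21, sham at 14, sham at 50 and sham at 21 days. Seltzer at 50 days has no place in that order, since it has only an upper bound, which lies within or above the sham values. Neighbours whose arrays overlapped were Seltzer at 14 and CCI at 21, and CCI at 21 and Seltzer at 21 days. RT1-Da (M15562_g_at) ran from Seltzer at 14 days through CCI at 14, CCI at 21, Seltzer at 50, Seltzer at 21, sham at 14 and sham at 50 to sham at 21 days. In that order CCI at 14 and at 21 days did not overlap, nor did sham at 14 and at 50 or sham at 50 and at 21 days, and all other neighbours did. For both genes, every CCI array and every Seltzer array of 14 and 21 days lay above the sham arrays of its own day. Ctss (L03201_at) was higher in CCI than in Seltzer ganglia at 14 days without overlap, overlapped between the CCI groups at 14 and 21 days, and was below background in all sham groups and in Seltzer at 50 days, which are therefore not ranked.

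No other gene of the class II pathway was called after CCI. Of 37 listed, 25 were measured and 8 were above background on at least 1 array. In CCI ganglia as the mean over 14 and 21 days limma called 0 of the 25, 3 had an unadjusted p under 0.05, against 10.7% of all probe sets, and the median change of the 25 was 0.05. RT1-DMa and RT1-DMb, whose product helps load peptide, changed by 0.33 (adjusted p = 0.849) and 1.11 (adjusted p = 0.446). The endosomal proteases Ctsb, Ctsd and Ctsl changed by 0.10 (adjusted p = 0.851), 0.06 (adjusted p = 1) and 0.07 (adjusted p = 1). Cst3, a cathepsin inhibitor, changed by 0.21 (adjusted p = 0.982). Ifng, the cytokine that induces class II in many cells, and Irf1, which it induces, changed by 0.02 (adjusted p = 1) and 0.19 (adjusted p = 0.844). RT1-DMb and Ifng were above background on no array, and Irf1 only on the 2 Seltzer 14-day arrays. Whether these 3 genes changed after CCI can therefore not be read from their values.

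In Seltzer ganglia Ctsb, which encodes cathepsin B, fell in the mean over days by 0.79 (adjusted p = 0.000311) on the log2 scale, the 1 gene of the list called, with 5 at an unadjusted p under 0.05, against 17.1% of all probe sets. This fall came from the 50-day arrays. Group means of Ctsb were 1726 in Seltzer and 1631 in sham ganglia at 14 days. At 21 days they were 1978 and 2058, and the arrays overlapped at both days. Ctsb was at 377 and 396 in Seltzer ganglia at 50 days, against 2048 and 2156 in sham ganglia. Both Seltzer values were below background, and the 50-day change was -2.39 (adjusted p = 1.65e-06). Ctsd, another endosomal protease, changed by -1.45 (adjusted p = 0.0146) and Cstb, a cathepsin inhibitor, by -0.93 (adjusted p = 0.0108) at 50 days. Limma called 3 of the 25 lower and 0 higher at that day, against 7.2% lower among all probe sets. Ctsd was at 126 and 277 in Seltzer ganglia, against 521 and 563 in sham ganglia, and both Seltzer arrays had background levels above these sham values, so a fall of Ctsd cannot be established from them.

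**Figure D4:**
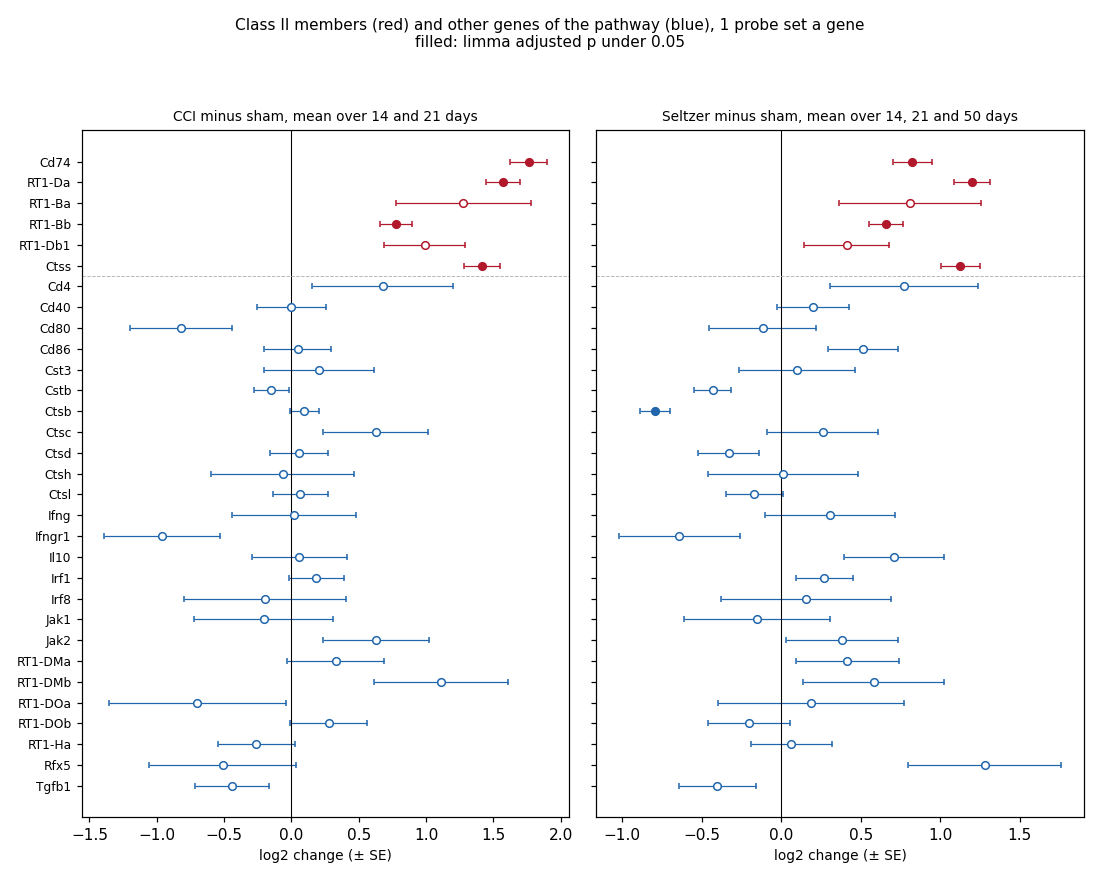
Log2 change (x axis, ± SE) of the member genes (red) and 25 other genes of the class II pathway (blue), 1 probe set a gene, for CCI minus sham as the mean over 14 and 21 days and Seltzer minus sham as the mean over 14, 21 and 50 days. Filled points passed the limma adjusted p threshold of 0.05. In CCI ganglia the 4 filled points are members. In Seltzer ganglia Cd74, RT1-Da, RT1-Bb and Ctss are filled too, and Ctsb is the filled blue point at -0.79.

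Markers of the cells that could carry class II were read beside these values. Of 17 macrophage markers 9 were measured, and only Lyz2, on 19 arrays, and Cd14, on 12, were above background anywhere. Aif1, Itgam, Csf1r, Fcgr2b, C1qb, C1qc and Cx3cr1 were above it on none. The summed macrophage level was 2169.6 to 2892 in CCI and 2230.4 to 2503 in Seltzer ganglia at 14 days, against 1234 to 1767 in sham ganglia. At 21 days it was 2285 to 3065 in CCI and 1697 to 2100.4 in Seltzer ganglia, against 1034 to 1469 in sham ganglia. The sums of both injuries lay above sham at both days. Lyz2 weighs most in them, with a median of 1522 over all arrays, against 234 for Cd14 and 26.3 or less for the others. Lyz2, a lysozyme of macrophages, rose in CCI ganglia by 1.21 (adjusted p = 0.00794), the 1 of the 9 that was called. Cd14 changed by -0.05 there, and the median change of the 9 was 0.18. At 50 days the sum was 1106 to 1586 in Seltzer ganglia, against 837 to 1095 in sham ganglia, and Cd14 was called higher. The median change of the 9 was -0.08 at that day. Negative values count as 0 in the sums, so noisier arrays can give higher sums. Background levels of the Seltzer 50-day arrays were 766.3 and 598.9, and the highest Cd14 value on any array was 736. The part of macrophages in the members' changes was not tested.

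The other lists were thinner. Of 6 B cell markers only Cd79b was measured, above background on no array, and none of 5 dendritic cell markers was measured. Of 6 markers of all leukocytes, Cd48 was above background on 12 arrays and Coro1a on 3, and none was called after CCI. In Seltzer ganglia Coro1a was called lower in the mean over days, with a log2 change of -0.69 (adjusted p = 0.00527), against 2.46% of all probe sets. At 50 days Coro1a was called lower, against 7.2% of all, and Cd37 higher without exceeding background, against 8.72%. The highest Coro1a value on any array was 227, and the Seltzer 50-day background levels were 766.3 and 598.9. A fall of Coro1a at 50 days can therefore not be read from its values. The summed T cell level came from 8 of 9 markers, with 1 ever above background. It was 1042 to 1434 in Seltzer ganglia at 50 days, against 381 to 392 in sham ganglia. Cd3g and Cd5, 2 of the 8, were called higher there without exceeding background, against 8.72% of all probe sets. No T cell marker exceeded 462 on any array, which is under both Seltzer 50-day background levels. In this sum too negative values count as 0, so a rise of T cell markers cannot be read from it. The part of T cells in the members' 50-day values was not tested. Skeletal muscle genes also moved between groups: their sum was 8723 to 10241 in CCI ganglia at 14 days, against 3972 to 4601 in sham ganglia, and 952 to 1805 against 4311 to 4532 at 21 days. In Seltzer ganglia it was 5796 to 5980.1 at 14 days, against 3972 to 4601 in sham ganglia, and 2648 to 3336 against 4311 to 4532 at 21 days. At 50 days it was 3058 to 4071 in Seltzer ganglia, against 657 to 987 in sham ganglia. The part of muscle RNA in the members' changes was not tested.

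The members differed in how closely they followed each other over the 20 arrays, which share groups and differ in background level. Log2 values of Cd74 (X13044_at) correlated with RT1-Da (M15562_g_at) at r = 0.766, with Ctss (L03201_at) at 0.655, with RT1-Ba (K02815_s_at) at 0.0836 and with RT1-Db1 (X53054_g_at) at 0.0673. Among 1674 probe sets with 1 gene symbol and above background on at least 5 arrays, the genes most like Cd74 were Gfra1 (r = 0.898), Lyz2 (0.885), Adcyap1 (0.863), Gal (0.848), Npy (0.832) and Jun (0.822). Most like RT1-Da were Adcyap1 (0.92), Ptpro (0.883), the member Ctss (0.85), Ccl2 (0.85), Gal (0.817) and Atf3 (0.816). Most like Ctss were Atf3 (0.939), Npy (0.921), Gadd45a (0.862), the member RT1-Da (0.85), Gal (0.843) and Ptpro (0.838). Gal was on all 3 lists. Ctss was above background on 9 of the 20 arrays and on no sham array. Of the listed genes outside the members, Lyz2 was above it on 19 arrays and Ccl2 on 14. Gal, Npy, Atf3 and Jun were above it on 11, Adcyap1 on 10, Gfra1 on 9, and Gadd45a and Ptpro on 5. Values below background enter these correlations, and the difference between injured and sham arrays was not removed from them.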

How the data were processed

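Each of 20 total RNA samples was read on 1 Affymetrix rat array, and the deposited intensity values are linear and partly negative. How the authors scaled the arrays, subtracted background and computed the values is not given in the sources used here. Titles of the 21-day CCI samples read CC1 and their descriptions name the injury, per the labels. After 59 of 8799 probe sets were left out as array controls, negative values were raised to 0 and log2(value + 16) was fitted with 8 group means in limma 3.58.1 (lmFit, eBayes; R 4.3.3; 12 residual degrees of freedom), two-sided, with Benjamini-Hochberg adjustment over 8740 probe sets per contrast. The fit was tested on simulated data. Of the probe sets, 7006 had 1 symbol in the array's annotation, 308 several and 1426 none.

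Where the dimmer group was under background on all its arrays, folds are bounds: the brighter group's geometric mean over, per dim array, the higher of background level and own value. Every member probe set is reported. Pathway and marker genes are read from their brightest probe set. Pathway genes called in a mean contrast are named, with a set always given where measured, and Ctsd, Cstb and the marker genes given as called were named after their values were seen. Members and lists were chosen with earlier results of these data known. Figures used Python 3.11.15 and matplotlib 3.10.9.

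Same-numbered Seltzer and sham arrays at 21 days deviated together from their group means (r = 0.299, 0.226 and 0.11). Arrays of different numbers were not compared, so whether those numbers mark pairs was not tested. On 3 CCI samples the labels tie the number to an unexplained lot batch. Same-numbered CCI and sham arrays at 21 days had lower correlations throughout (0.0606, 0.0881 and 0.0931). Alternatives were a pseudocount of 1 or 64, quantile normalization, centred arrays, removal of the dimmest probe sets, a fit of the compared groups alone, a replicate block, no Seltzer 50-day arrays, 14-day groups set against 21-day sham, a floor of 200, and each array left out in turn.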

Additional observations from a re-analysis of the deposited data

Results flagged for a closer look

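Cd74 (X13044_at) was picked out because its Seltzer effect at 50 days differed from the mean of its effects at 14 and 21 days, by -1.68 on the log2 scale (SE 0.27, limma adjusted p = 0.00175). Both Seltzer 50-day arrays were below the Seltzer 14-day and 21-day arrays and below both sham 50-day arrays. Both values were also under those arrays' background levels, and with the arrays set at these levels the difference would be -0.53.

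RT1-Bb (X56596_at) was picked out on the same difference, which was 0.94 (SE 0.23, limma adjusted p = 0.0232). Both Seltzer 50-day arrays were above all its other arrays, and all 4 arrays at 50 days were below background. Among all probe sets, 9.67% were called on this difference in either direction.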

How the results depend on the processing

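No change that was called turned direction under any alternative. The number of member probe sets called moved as follows. With quantile normalization 2 were called for Seltzer at 14 days and 1 for the Seltzer effect at 50 days against that at 14 and 21 days. With centred arrays 0 were called for Seltzer at 14 days, 1 at 21 days, 1 for the Seltzer effect over time and 0 for sham at 21 against 14 days. With the dimmest probe sets left out these were 1 at 21 days, 1 for the effect over time and 0 for sham at 21 against 14 days. With only the groups compared, 1 was called for CCI at 21 days, 0 for Seltzer at 14, 21 and 50 days, 1 for CCI against Seltzer and 0 for sham at 21 against 14 days. Without the Seltzer 50-day arrays 3 were called for the Seltzer mean and 1 at 21 days. With the 21-day sham arrays as control, 4 were called for CCI and 3 for Seltzer at 14 days. A floor of 200 left 1 for Seltzer at 21 days. The cause of these moves was not tested. Shares of all probe sets called under the alternatives, including each array left out, are not given here or above. A move in a member count can therefore not be told apart from a move over all probe sets.

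With a replicate block 2 were called for Seltzer at 14 days, where Ctss was gained (adjusted p = 0.0269). At 21 days the block changed no Seltzer call. The block fits a shared effect of each replicate number over all groups and days, so a pairing at 21 days alone was not modelled. Elsewhere it gained Cd74 (X13044_g_at) in the Seltzer mean (adjusted p = 0.0432) and lost RT1-Bb (M36151cds_s_at) for CCI at 14 days (adjusted p = 0.091).

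Leaving out 1 array at a time gave 6 to 7 member calls for the CCI mean, 4 to 8 for CCI at 14 days, 3 to 5 at 21 days, 5 to 6 for the Seltzer mean, 1 to 3 at 14 days, 1 to 3 at 21 days and 3 to 4 at 50 days. It gave 0 to 1 for CCI against Seltzer, 0 to 1 for the CCI effect over time, 1 to 3 for the Seltzer effect over time, 0 to 2 for sham at 21 against 14 days and 0 to 2 for sham at 50 against 21 days. The 4 came without Sham 14-day replicate 1 and the 5 without Sham 21-day replicate 1. The 1 for the Seltzer effect over time came without Seltzer 50-day replicate 1 or Sham 50-day replicate 1. Where 1 array was left in a group, it was assumed to vary like the other groups. Groups of 2 or 3 arrays, and the raised background of the Seltzer 50-day arrays, limit what can be seen.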
